A study of Mus musculus with 6 samples.

Results

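Transcripts of sirtuins and of lysine acetyltransferases were followed in CD4+CD25+ regulatory T cells (Treg) of mice, from HDAC6 knockout and wild-type animals. Every array probe set whose annotation named 1 gene, and that gene 1 of 10 listed enzymes, was taken: the sirtuins Sirt1, Sirt2, Sirt3, Sirt4 and Sirt7 and the acetyltransferases Ep300, Crebbp, Kat2a, Kat2b and Kat5. This gave 11 probe sets for 8 genes, out of 22626 probe sets for 12393 genes in the whole series. All 5 sirtuins had a probe set, and 3 of the 5 acetyltransferases did. No probe set carried the name of Ep300 or Kat5 alone or among several genes, so both are named only. No probe set was removed for a low value.

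The study's title sets HDAC6 beside HSP90 in the function of Foxp3+ Treg. Its arrays compare 3 samples of HDAC6 knockout Treg with 3 of wild type. The wild-type mice are labelled C57BL6; for the knockout mice the labels give a genotype and no strain, and the allele, the age of the animals and any pooling are not given in the sources used here. In both groups the cells were separated magnetically as CD4+CD25+, a purification that can carry over activated T cells and other cells. Values are log2 RMA values, the scale on which 1 unit is a doubling of signal, and differences are knockout minus wild type.

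Lysine acetyltransferases move an acetyl group from acetyl-CoA to lysines of histones and other proteins, and deacetylases take it off again. Sirtuins are the deacetylases that consume NAD+, whereas HDAC6 belongs to the zinc-dependent kind. In Treg the transcription factor Foxp3 is itself acetylated: p300 (the product of Ep300) and TIP60 (the product of Kat5) are known to acetylate it and SIRT1 to deacetylate it, and acetylation protects Foxp3 from degradation. Crebbp encodes CBP, the close relative of p300, and Kat2a and Kat2b encode the paralogous enzymes GCN5 and PCAF.

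Array medians ran from 6.22 to 6.27 and upper quartiles from 8.36 to 8.40. In wild type the single probe set of the targeted gene, Hdac6, read 8.54, 8.23 and 8.42, and in the knockout 7.54, 7.86 and 7.64, a difference of -0.71 (SE 0.11) with limma's adjusted p at 0.0875. The sources used here do not place that probe set against the deleted part of the gene, so it is no check of the labels. Foxp3 read 10.18 to 10.40 in the knockout and 10.21 to 10.33 in wild type and so lay above the upper quartile of every array. Of the markers of other cells 1 had an adjusted p under 0.05 in limma's fit. Among 6 measured B and plasma cell markers, 4 were higher in the knockout and 2 lower. Igha (the IgA constant region) was 1.81 higher (limma's adjusted p = 0.0105 over genes). Jchain differed by 0.58 (adjusted p = 0.199) and Ms4a1 (CD20) by -1.13 (adjusted p = 0.211), both without overlap between groups. The mean of that list was 9.34 to 9.74 in the knockout arrays and 9.27 to 9.51 in wild type, and 1 of its members, Pax5, lay below the median of every array. The mean of the 6 myeloid markers was 5.92 to 6.32 against 5.93 to 6.48, and that of the 5 CD8 T and NK cell markers 6.89 to 7.20 against 6.999 to 7.22. Within the latter list Cd8b1 differed by -0.37 and Cd8a by 0.25, both without overlap (limma's adjusted p = 0.175 and 0.336). The Cd8a probe set lay below the median of every array. All 3 measured red cell and platelet markers lay below the median of every array. Whether other cells had a part in the differences given here was not tested, and in bulk samples fewer cells of a type and less RNA per cell cannot be told apart.

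None of the 11 probe sets differed past the threshold. Limma (two-sided, Benjamini-Hochberg adjusted over all 22626 probe sets) called 0 of them at an adjusted p under 0.05, against 0.194% of all probe sets, and the lowest adjusted p among them was 0.225. At an unadjusted p under 0.05 there were 2, both lower in the knockout, namely Kat2b and Sirt1; over all probe sets 5.36% were lower at that level. The knockout mean was the lower one for 9 of the 11, against 50.4% of all probe sets. Of those 9, 2 were Kat2a probe sets at -0.00, whose sign turned with quantile normalization. Their median difference was -0.13, against -0.0012 over all probe sets. For 3 of them, Kat2b, Sirt1 and Crebbp, every knockout array lay below every wild-type array, as it did for 9.48% of all probe sets. With 3 arrays per group an exact permutation test of a single probe set cannot give a two-sided p below 0.1, and this is the value that groups without overlap reach.

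**Figure D1:**
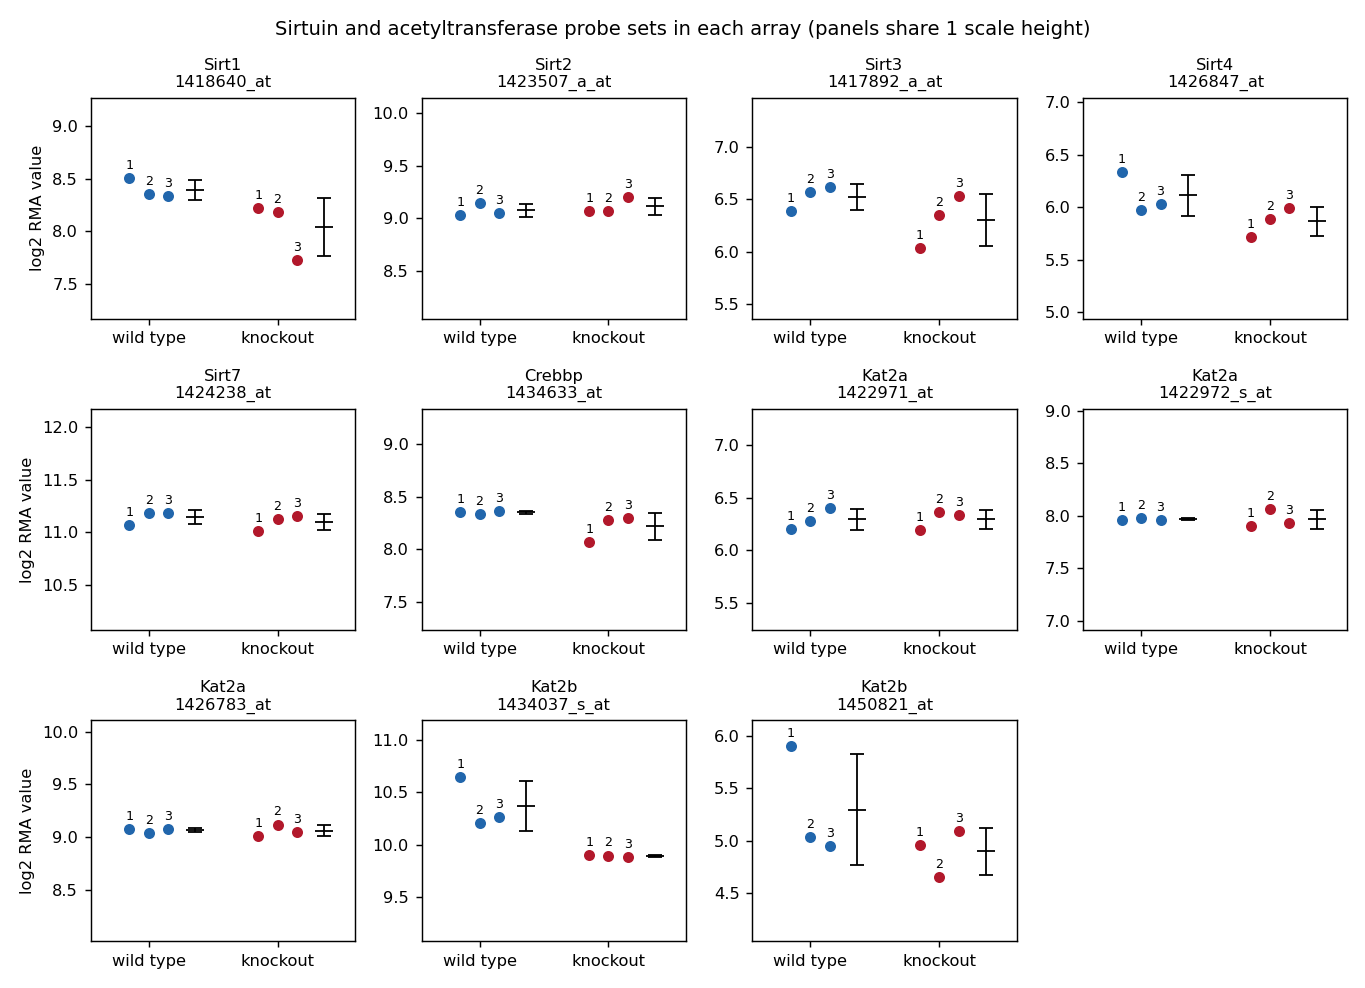
Log2 RMA value (vertical axis) of each of the 11 probe sets in the 3 wild-type arrays (blue) and the 3 knockout arrays (red); numbers are replicate numbers and the bar beside each group is its mean with the SD. The knockout points of the brighter Kat2b probe set lie at 9.89 to 9.91 below wild-type points at 10.21 and above, while the 3 Kat2a panels show the groups at the same height.

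Among the sirtuins, Sirt1 showed the largest difference. SIRT1 is the nuclear sirtuin that deacetylates histones, p53, FOXO factors and Foxp3. Its probe set read 8.51, 8.35 and 8.33 in wild type and 8.22, 8.18 and 7.72 in the knockout. All 3 knockout arrays lay below the wild-type arrays, the nearest pair 0.12 apart, and knockout replicate 3 lay well below the other knockout arrays. The means were 8.04 (SD 0.28, n = 3) and 8.40 (SD 0.09, n = 3). The knockout was 1.28-fold lower, a log2 difference of -0.36 (SE 0.14, 95% interval -0.69 to -0.03), with an unadjusted p of 0.0377 in limma's fit and an adjusted p of 0.429. Without knockout replicate 3 the difference was -0.20.

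The mitochondrial sirtuins Sirt3 and Sirt4 had lower knockout means, and their groups overlapped. SIRT3 is the main deacetylase of mitochondrial enzymes. Sirt3 read 6.38, 6.57 and 6.61 in wild type and 6.04, 6.35 and 6.53 in the knockout. Knockout replicate 1 was the lowest array and the other knockout arrays lay within or close to the wild-type range. The difference was -0.22 (SE 0.13, limma's adjusted p = 0.623), and it was -0.09 without knockout replicate 1. SIRT4 acts in the same compartment and restrains glutamate dehydrogenase. Sirt4 read 6.33, 5.98 and 6.03 in wild type and 5.72, 5.89 and 5.996 in the knockout. The highest knockout value passed the lowest wild-type value by a small margin, and wild-type replicate 1 stood above the rest. The difference was -0.25 (SE 0.12, 95% interval -0.53 to 0.03, limma's adjusted p = 0.533), and -0.14 without that array.

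Sirt2 and Sirt7 were close in both genotypes, and their intervals were narrow. SIRT2 is the mostly cytoplasmic sirtuin that, like HDAC6, deacetylates alpha-tubulin. Sirt2 read 9.03, 9.15 and 9.05 in wild type and 9.07, 9.07 and 9.20 in the knockout, so the groups interleaved. It was the 1 sirtuin with a higher knockout mean, by 0.04 (SE 0.07, 95% interval -0.14 to 0.21). That sign turned without knockout replicate 3, to -0.01. SIRT7 is the nucleolar sirtuin tied to ribosomal RNA transcription. Sirt7 read 11.07, 11.18 and 11.19 in wild type and 11.01, 11.13 and 11.16 in the knockout, with a difference of -0.05 (SE 0.07, 95% interval -0.22 to 0.13), which ran from -0.09 to -0.01 with 1 array left out, the extremes without wild-type replicate 1 and knockout replicate 1. The intervals of both genes leave out the -0.36 measured for Sirt1, but the difference between the genes was not tested.

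Among the acetyltransferases Kat2b stood lowest against wild type. PCAF, its product, acetylates histone H3 and transcription factors as a subunit of large coactivator complexes. The brighter of its 2 probe sets (1434037_s_at) read 10.64, 10.21 and 10.26 in wild type and 9.91, 9.90 and 9.89 in the knockout. The knockout arrays were almost level, with an SD of 0.01 against 0.24 in wild type, and the nearest arrays of the 2 genotypes were 0.30 apart. The knockout was 1.39-fold lower, a log2 difference of -0.48 (SE 0.12, 95% interval -0.76 to -0.19), with an unadjusted p of 0.00525 and an adjusted p of 0.225 in limma's fit. Leaving out 1 array moved it between -0.56 and -0.34, the latter without wild-type replicate 1.

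The dimmer Kat2b probe set (1450821_at) gave a difference of the same sign that rested on 1 array. It lay below the median of every array and read 5.90, 5.03 and 4.95 in wild type and 4.96, 4.65 and 5.09 in the knockout. Wild-type replicate 1, which was also the highest array for the brighter probe set, stood apart, and the other 5 arrays overlapped. The difference was -0.39 (SE 0.26, 95% interval -0.995 to 0.21, limma's adjusted p = 0.643), and -0.09 without wild-type replicate 1. Its spread within groups was larger than that of 98.2% of all probe sets.

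Kat2a, the paralogue of Kat2b, was level on all 3 of its probe sets. GCN5, its product, is the acetyltransferase of the SAGA and ATAC coactivator complexes, where it and PCAF take the same place. The brightest probe set (1426783_at) read 9.08, 9.04 and 9.07 in wild type and 9.01, 9.12 and 9.05 in the knockout. The second (1422972_s_at) read 7.96, 7.98 and 7.96 against 7.90, 8.07 and 7.93. The third (1422971_at) read 6.20, 6.28 and 6.40 against 6.19, 6.36 and 6.33. In each case the knockout arrays lay on both sides of wild-type arrays. The 3 differences were -0.00, -0.00 and 0.00, signs that turned under other scalings or with 1 array left out, and their 95% intervals ran from -0.16 to 0.15, from -0.17 to 0.17 and from -0.20 to 0.20.

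A ratio within an array compares the paralogues free of any offset common to that array, though not of scaling that differs between bright and dim probe sets. Kat2b minus Kat2a, each by its brightest probe set, was 1.57, 1.17 and 1.19 in wild type and 0.89, 0.78 and 0.84 in the knockout. The groups did not overlap, and the difference was -0.47. Its exact two-sided permutation p was 0.1, the smallest that 3 against 3 arrays can give. As Kat2b already separated the groups and Kat2a was level, this outcome was fixed in advance. The ratio restates the Kat2b difference and adds no evidence to it. This ratio was added after the values of both genes were seen.

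Crebbp was lower in every knockout array by a small amount. CBP serves as coactivator of CREB and many other factors and acetylates histone H3 at enhancers. The probe set read 8.35, 8.33 and 8.36 in wild type and 8.07, 8.28 and 8.30 in the knockout. The nearest arrays of the 2 genotypes were 0.04 apart, and the wild-type arrays had an SD of 0.01. The difference was -0.13 (SE 0.08, 95% interval -0.33 to 0.06, limma's adjusted p = 0.623), or -0.06 without knockout replicate 1.

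**Figure D2:**
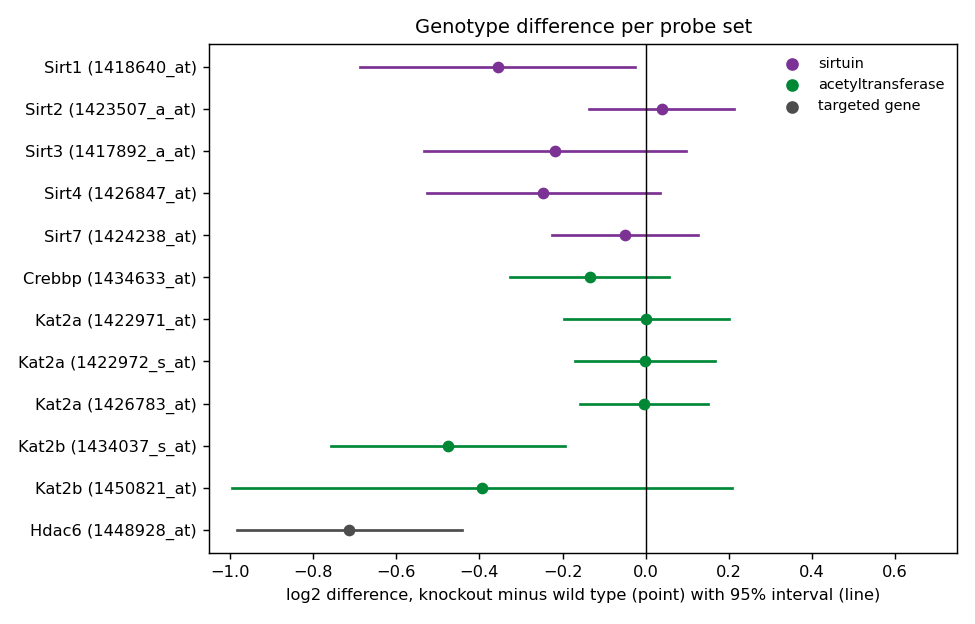
Log2 difference, knockout minus wild type (horizontal axis), of each of the 11 probe sets (purple, sirtuins; green, acetyltransferases) and of Hdac6 (grey), with points for the estimate and lines for limma's unadjusted 95% interval. Among the 11, the intervals of Sirt1 (-0.69 to -0.03) and the brighter Kat2b probe set (-0.76 to -0.19) lie below 0, and the other 9 cross it.

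The arrays did not share the low values evenly. Knockout replicate 1 was the lowest of the 6 arrays for 7 of the 11 probe sets, whereas it was the lowest for 19.3% of all probe sets. The 7 were those of Sirt3, Sirt4, Sirt7 and Crebbp and all 3 of Kat2a, so 1 gene with level groups gave 3 of them. Relative to the wild-type mean the median over the 11 was -0.18 in knockout replicate 1, -0.07 in knockout replicate 2 and -0.04 in knockout replicate 3. Wild-type replicates 1 and 3 were each the highest array for 4 of the 11, against 17.8% and 17.3% of all probe sets. Those of wild-type replicate 1 included both Kat2b probe sets. Sirt1 and the brighter Kat2b probe set kept a negative difference with any 1 array left out, as did Sirt3, Sirt4, Sirt7, Crebbp and the dimmer Kat2b probe set, and none of the 11 passed the threshold in any of those fits. Limma's lowest adjusted p over those fits was 0.252, for Kat2b without wild-type replicate 1, and each fit left 1 or 2 of the 11 at an unadjusted p under 0.05.

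**Figure D3:**
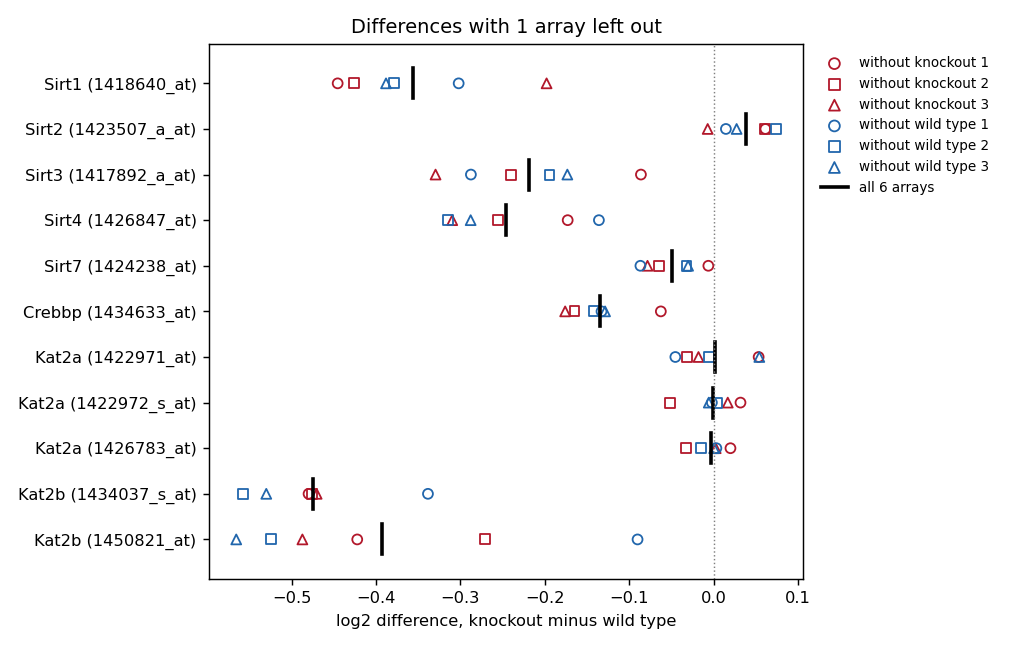
Log2 difference (horizontal axis) of each probe set over all 6 arrays (black bar) and with 1 knockout array (red) or 1 wild-type array (blue) left out. The points of Sirt1 run from -0.45 to -0.20 and those of the brighter Kat2b probe set from -0.56 to -0.34, while those of Kat2a lie on both sides of 0.

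The 3 genes whose probe sets tracked the brighter Kat2b probe set most closely over the 6 arrays were Dhx36, which encodes a helicase of G-quadruplex structures (Pearson's r = 0.996), Ehd3, which encodes an endosomal membrane protein (0.993), and Srsf5, which encodes a splicing factor (0.991). Over so few arrays 75 named probe sets reached an r of at least 0.95, and all these arrays share the genotype split, so the values are a description. Dhx36 read 8.30, 7.95 and 8.01 in wild type and 7.78, 7.73 and 7.75 in the knockout. Like Kat2b it was level in the knockout and highest in wild-type replicate 1, a likeness that follows from picking it by that correlation.

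The genes around these enzymes were read from 7 lists, with each gene given by its brightest probe set and p-values adjusted over 12393 genes. Of 117 distinct genes 92 were measured, and limma called 0 of them at an adjusted p under 0.05, against 0.161% of all genes. At an unadjusted p under 0.05 there were 6 higher and 7 lower, against 5.7% and 5.45% of all genes. Values for the genes named below are means of 3 arrays per group.

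NAD+ is the cosubstrate of sirtuins, and the genes that make or use it went both ways. Of 11 measured, 4 were higher and 7 lower, with a median of -0.01 against 0.00 over all genes, and 2 in each direction had an unadjusted p under 0.05. Nnt, the mitochondrial transhydrogenase that couples NADH to NADPH, read 8.46, 8.49 and 8.46 in wild type and 7.90, 8.05 and 7.83 in the knockout. The groups did not overlap, and the difference of -0.54 (SE 0.08) had an adjusted p of 0.0764 in limma's fit. The other Nnt probe set differed by -0.68, again without overlap. As the knockout mice carry no strain label, strain and genotype cannot be told apart for Nnt or for any other gene here, Kat2b included. Nmnat1, the nuclear enzyme that completes NAD+ synthesis, differed by -0.31 (SE 0.09, 5.70 against 6.02), and by -0.09 on its other probe set. Both Nmnat1 probe sets lay below the median of every array. Nampt, the rate-limiting enzyme of NAD+ salvage, differed by 0.30 (SE 0.11, 8.05 against 7.75), also without overlap, and by 0.20 without knockout replicate 1. Its other probe set had the same sign, but it lay below the median of every array (3.80 against 3.54) and its groups overlapped.

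Substrates and regulators of sirtuins had a median of 0.02, with 9 higher and 4 lower of 13, and 1 at an unadjusted p under 0.05. That gene was E2f1, a cell cycle factor, at 0.31 (SE 0.08, 6.21 against 5.91, limma's adjusted p = 0.202). The other E2f1 probe set, below the median of every array, differed by 0.19, with overlap between groups. The mitochondrial substrates Idh2 and Glud1 differed by -0.16 (SE 0.08) and -0.13 (SE 0.07), the former by -0.09 without knockout replicate 1. The other Glud1 probe set differed by -0.18 without overlap, at an unadjusted p of 0.0234 in limma's fit.

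The partners of GCN5 and PCAF in the SAGA and ATAC complexes counted 5 higher and 13 lower of 18, with a median of -0.02. The ATAC subunit Mbip differed by -0.34 (SE 0.08, 7.22 against 7.57, limma's adjusted p = 0.175). Sgf29, the subunit that reads methylated histone H3, differed by -0.27 (SE 0.08), and all 3 of its probe sets were lower, from -0.27 to -0.22. Both had an unadjusted p under 0.05 and no overlap between groups. The adaptor Tada3 differed by 0.11 (SE 0.06), and its other probe set had the opposite sign, -0.21. That other probe set lay below the median of every array (4.75 against 4.97).

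Kat5 itself had no probe set, but partners of TIP60 in the NuA4 complex did. Of 12 measured, 3 were higher and 9 lower, with a median of -0.05 against 0.00 over all genes. Yeats4, the reader subunit GAS41, differed by -0.22 (SE 0.07, 9.52 against 9.75, limma's adjusted p = 0.329) and was the 1 member with an unadjusted p under 0.05. Dmap1 and the actin-like subunit Actl6a differed by -0.15 (SE 0.07) and -0.19 (SE 0.09). For Actl6a the value was -0.12 without knockout replicate 3, and its other probe set differed by -0.03.

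The factors that recruit CBP and p300 or compete for them counted 9 higher and 5 lower of 14, with a median of 0.05, and 1 in each direction had an unadjusted p under 0.05. Crem, a CREB relative induced by cyclic AMP, differed by 0.28 (SE 0.09), with 1 of its 3 probe sets of the opposite sign. That probe set lay below the median of every array (2.93 against 3.15). Cited2, which binds CBP and p300, differed by -0.22 (SE 0.07), and both of its probe sets were lower. Creb1 differed by 0.17 (SE 0.10), with 2 of its 4 probe sets of the opposite sign, and by 0.08 without wild-type replicate 1. Limma's adjusted p for Crem, the lowest of the list, was 0.305.

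Acetyl-CoA supply genes had a median of -0.00, with 5 higher and 6 lower of 11. The lactate transporter Slc16a3, counted here as part of pyruvate handling, differed by 0.42 (SE 0.08, 6.05 against 5.63, limma's adjusted p = 0.108) and was the 1 gene with an unadjusted p under 0.05. Its only probe set lay below the median of every array. Acly, which makes cytosolic acetyl-CoA from citrate, differed by -0.11 (SE 0.07) and Acat1, a mitochondrial thiolase, by -0.14 (SE 0.08). Acly was at -0.07 without knockout replicate 3, Acat1 at -0.08 when wild-type replicate 2 was left out, and all 5 Acly and 3 Acat1 probe sets had a lower knockout mean.

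Among the other acetyltransferases and sirtuins 13 of 20 listed genes were measured, 7 higher and 6 lower, with a median of 0.03, and 1 in each direction, Esco1 and Kat6b, had an unadjusted p under 0.05. Esco1, the acetyltransferase of cohesin, read 9.21, 9.21 and 9.17 in wild type and 9.79, 9.63 and 9.65 in the knockout. The groups did not overlap on that probe set, and the difference of 0.50 (SE 0.07) had an adjusted p of 0.0764 in limma's fit. Its dimmer probe set had the opposite sign, -0.26, also without overlap, so the 2 probe sets give no single direction for Esco1. Kat6b, a histone H3 acetyltransferase of the MYST family to which TIP60 belongs, differed by -0.24 (SE 0.07, 7.69 against 7.92), and the nuclear receptor coactivator Ncoa3 by 0.14 (SE 0.07).

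**Figure D4:**
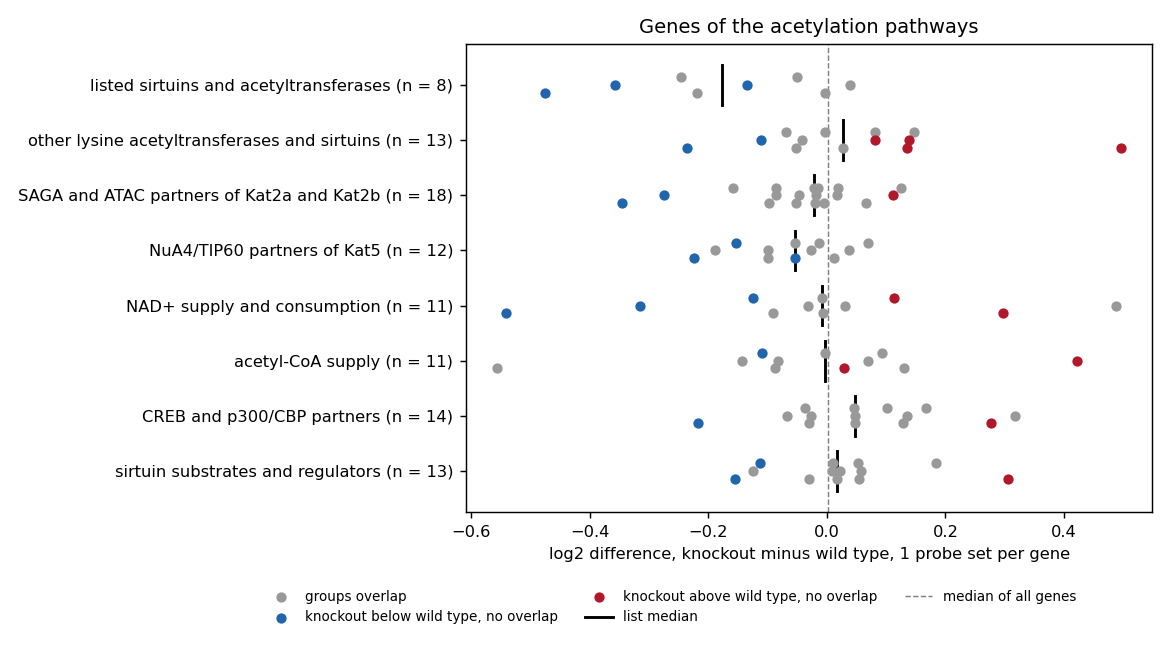
Log2 difference, knockout minus wild type (horizontal axis), of each measured gene by its brightest probe set, for the 8 measured listed enzymes and for the 7 pathway lists; blue and red points have no overlap between groups, bars are list medians and the dashed line is the median of all genes. The list medians lie between -0.05 and 0.05 apart from that of the 8 enzymes, at -0.18.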

How the data were processed

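Per the labels' protocols, total RNA of 6 samples was amplified and labelled with biotin for 1-colour arrays. The authors deposited log2 values of 22690 probe sets, made with RMA (background correction, quantile normalization and summary over the probes of a set) per the submitters' processing notes; that the scale is log2 was read off the values. RMA compresses differences of dim probe sets. Background correction could not be varied, and the number of arrays limits the precision (median SE 0.10). No slide or scan date was used here.

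The 64 control probe sets were left out. Gene names came from the platform annotation, updated through gene IDs in a RefSeq table (assembly GRCm38.p6), which held those of 20351 probe sets; 20380 carried 1 symbol, 691 several and 1555 none. All 22626 others were fitted by genotype (limma 3.58.1, R 4.3.3, default eBayes), a step tested on simulated data; the threshold was an adjusted p of 0.05. No label says whether samples of a group are separate animals, so p-values measure the spread between these samples. The genes named were every listed enzyme, Hdac6, the 3 genes of each list with the smallest p (by the brightest probe set), and the 3 genes most correlated with the enzyme of smallest p. Members and lists were chosen with earlier results of these data known. Alternatives were quantile normalization or median centring, a replicate block, array weights, trend and robust eBayes, filters on dim probe sets (upper 60%, or mean of at least 6), unmoderated variance, 1 probe set per gene, a threshold of 0.1 and leaving out each array. Figures used matplotlib 3.10.9 in Python 3.11.15.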

Additional observations from a re-analysis of the deposited data

How the results depend on the processing

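Of the 11 probe sets of sirtuins and acetyltransferases, 0 passed limma's threshold under every alternative run, with 1 to 3 at an unadjusted p under 0.05 and a lowest adjusted p of 0.109 (Kat2b, trend and robust settings). Their median difference ranged from -0.18 to -0.05, and 3 to 5 lay below wild type without overlap (5 without knockout replicate 3 or wild type replicate 1, where fewer arrays have to be separated). The matching share of all probe sets was not counted for these alternatives, so these counts have no background to be judged against. Over all probe sets the count of calls moved from 44 to 27 with the replicate block, 147 with trend and robust settings, 86 with array weights, 121 at a threshold of 0.1, 0 with unmoderated variance (where 1 of the 11 had an unadjusted p under 0.05), 20 over genes and 5 to 51 with 1 array left out.

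Sign changes were confined to Kat2a and Sirt2 among the 33 named probe sets. For Kat2a, 1422972_s_at went from -0.00 to 0.02 with quantile normalization, 0.0017 with median centring and 0.031 with array weights, and 1426783_at to 0.0075 with quantile normalization and 0.0195 with array weights. With 1 array left out, these probe sets ranged from -0.052 to 0.032 and from -0.033 to 0.020, 1422971_at from -0.045 to 0.054, and Sirt2 from -0.0070 to 0.074. With trend and robust settings Hdac6 (adjusted p = 0.0259), Esco1 (0.0134) and Nnt (0.0191) passed, and with a mean of at least 6 Esco1 (0.0390) and Nnt (0.0423) did.

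Whether the replicate numbers pair the samples cannot be told from 3 arrays per group. Deviations of same-numbered arrays from their group means correlated at 0.22, -0.09 and 0.10. Those of differently numbered arrays correlated at -0.22 to 0.13. Deviations within a group sum to 0, which ties these values to each other. With the replicate number as a block, Kat2b had an adjusted p of 0.233 and Sirt1 of 0.320, and 0 of the 11 passed.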
